A study of Mus musculus with 24 samples.

Results

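The mitochondrial ribosomal proteins were taken as all genes of the count table whose symbol starts with Mrpl or Mrps followed by a digit, leaving out names that mark pseudogenes. Of 46078 rows, 78 met this rule, 48 named for the large subunit (Mrpl) and 30 for the small one (Mrps). Of these, 76 passed the filter of more than 0.5 CPM (a gene's reads relative to the size of its library) in at least 6 of 24 libraries: 47 Mrpl and 29 Mrps genes among 15456 genes tested. PolyA RNA was sequenced from the ventricular apex of male C57BL/6 mice, 10 weeks old, collected on day 5, with 6 hearts in each of 4 groups and 1 animal tag per heart. DTR_PYR hearts had an injury made with diphtheria toxin and received pyridostigmine (PYR), an inhibitor of the enzymes that break down acetylcholine. DTR_PBS hearts had the same injury and received the vehicle PBS. WT_PYR hearts had no toxin and received pyridostigmine, and WT_PBS hearts had no toxin and received PBS. DTR commonly stands for a diphtheria toxin receptor; the sources used here name neither the cells that carried it nor its promoter. The p-values below measure the spread between hearts, pooled over all 4 groups. Hearts outside a comparison thus enter its p-values, and the groups spread unequally. The SD of the summed CPM of the Mrpl genes was 576 in DTR_PBS and 157 in WT_PBS hearts. DTR hearts differed from WT hearts in genotype and in toxin together, and the parts of genotype and toxin cannot be told apart.

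The mitochondrial ribosome translates the few mRNAs of the mitochondrial genome, all of which code for subunits of the respiratory chain and the ATP synthase. Its rRNAs are made in the organelle, while its proteins are encoded in the nucleus, made in the cytosol and imported. Part of these proteins have counterparts in bacterial ribosomes, and others exist only in mitochondria; roles given below come from structures of pig and human mitochondrial ribosomes and from bacterial counterparts. Heart muscle cells are packed with mitochondria and depend on this translation for oxidative metabolism.

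Total counts ranged from 1877914 reads in DTR_PBS heart 4 to 37842245 reads in DTR_PYR heart 5. None of the 10 cardiomyocyte markers was at 0 in any library of this ventricular tissue. Among the members, 2 entries were not tested. Mrpl53, whose product sits at the base of the stalk, had 22 reads in all, in 9 libraries, with at most 4 in one library; 695 of its 790 exon bases are shared with a gene on the same strand, Gm42688, in the reference annotation. The other was a second entry of Mrps23 on an alternative sequence of the assembly, with 0 reads. Another 5 rows with pseudogene names were left out and held between 0 and 8 reads.

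The promoters of 67 of the 76 tested members were in the RefSeq table for GRCm38.p6, as 250 bases before and 50 bases after the start. They were searched on both strands for the cores of the motifs of 4 factors known to act on nuclear genes of mitochondria or of ribosome production: CCGGAAG for the ETS factor GABPA, GCATGCGC for NRF1, AAGATGGCG for YY1 and CACGTG for the E-box of MYC. The ETS core was in 35.8% of the members' promoters, against 9.93% over 27025 gene symbols of the table. The NRF1 core was in 11.9% of the members' promoters, against 3.05% in the table. The YY1 motif was also in 11.9% of the members' promoters, against 1.64% in the table. The E-box was in 7.46% of the members' promoters, against 8.09% in the table. At least 1 of the ETS, NRF1 and YY1 motifs stood in 34 of 67 members (50.7%), against 13.6% of the table. The symbols of the table include genes that were not tested here, and shares over tested genes alone were not computed. A match is a run of letters in this window, with no measurement of binding in these data.

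The 250 bases before the start of 4 members are shown 5′ to 3′ on the gene's strand, with motif matches in capitals. Mrpl52 (chr14:54426659-54426908, plus strand) was higher in every DTR_PBS heart than in any WT_PBS heart. Mrpl39 (chr16:84735245-84735494, minus strand) and Mrpl10 (chr11:97041332-97041581, plus strand) are among the 3 members called down in both injury comparisons, and both hold an NRF1 core. Mrpl30, also called down in both, is not shown, and none of the 4 motifs was found for it. Under pyridostigmine the calls of these 3 were each lost in at least 11 of 36 alternatives. Mrps9 (chr1:42850983-42851232, plus strand) is the member whose fall held in every alternative tried.
Mrpl52: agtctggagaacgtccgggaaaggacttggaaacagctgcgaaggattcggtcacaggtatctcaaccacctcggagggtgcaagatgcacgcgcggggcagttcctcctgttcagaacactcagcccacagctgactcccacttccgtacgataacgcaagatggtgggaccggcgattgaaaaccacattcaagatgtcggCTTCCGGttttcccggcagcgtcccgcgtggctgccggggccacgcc
Mrpl39: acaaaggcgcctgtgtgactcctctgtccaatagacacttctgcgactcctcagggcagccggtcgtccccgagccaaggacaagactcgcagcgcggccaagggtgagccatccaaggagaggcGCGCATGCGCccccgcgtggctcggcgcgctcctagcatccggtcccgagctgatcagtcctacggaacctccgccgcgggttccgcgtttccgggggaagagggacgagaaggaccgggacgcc
Mrpl10: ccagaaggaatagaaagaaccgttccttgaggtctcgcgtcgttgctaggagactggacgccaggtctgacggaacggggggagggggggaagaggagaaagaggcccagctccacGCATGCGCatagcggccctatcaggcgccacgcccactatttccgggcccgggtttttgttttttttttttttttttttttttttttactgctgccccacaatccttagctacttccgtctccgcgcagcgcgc
Mrps9: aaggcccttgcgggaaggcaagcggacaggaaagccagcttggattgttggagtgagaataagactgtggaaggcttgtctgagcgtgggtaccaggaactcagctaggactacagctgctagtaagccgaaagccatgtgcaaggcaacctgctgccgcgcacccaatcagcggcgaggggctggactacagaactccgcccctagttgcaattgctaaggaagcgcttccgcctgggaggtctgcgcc
The capitals in Mrpl52 are the ETS core, read on the other strand, which begins at -47 counted from the start. Those in Mrpl39 are NRF1 cores on both strands that overlap, beginning at -125 and -123. The capitals in Mrpl10 are 1 NRF1 core at -134. None of the 4 motifs is in the window shown for Mrps9.

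Between the highest and the lowest Mrpl gene the level per length differed 41.0-fold, and between those of the Mrps genes 55.9-fold. Per kilobase of annotated exon, averaged over all libraries, Mrpl12, the protein present in several copies in the stalk that recruits translation factors, was highest of the large subunit genes at 110 CPM per kb. Mrpl1, of the mobile L1 stalk, was lowest at 2.68 CPM per kb, and the median of the 47 Mrpl genes was 19.3 CPM per kb. Mrps21, of the small subunit platform, was highest among Mrps genes at 120 CPM per kb. Mrps30 was lowest at 2.15 CPM per kb, and the median of the 29 Mrps genes was 10.1 CPM per kb. The exon length is the union over all annotated transcripts, so genes with long rarely used exons read low on this scale. In DTR_PBS hearts Mrpl12 (98.5 ± 40.3) and Mrpl34 (68.9 ± 33.9) led the Mrpl genes in CPM per kb, and in WT_PBS hearts Mrpl34 (105 ± 18.6) and Mrpl12 (103 ± 19.4) did (SD, n = 6 each), a pair whose order lies within its spread.

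After injury under vehicle, 23 of the 76 mitochondrial ribosomal protein genes were lower, 2 were higher and 51 were not called. In DTR_PBS against WT_PBS hearts, 16 of 47 Mrpl genes fell, 1 rose and 30 were not called, with a median log2 fold change of -0.29. Of 29 Mrps genes, 7 fell, 1 rose and 21 were not called, with a median of -0.21. These calls are from the edgeR quasi-likelihood test at a Benjamini-Hochberg adjusted p under 0.05 over all tested genes, of which 42.9% were called, 21.6% down and 21.3% up, with a median of 0.01. Of the members 30.3% were called down and 2.63% up. At an unadjusted p under 0.05 there were 32 members, 28 of them down, beside 49.9% of all genes. Of the 76 members 14 lay above 0, beside 50.5% of all genes. Members share hearts and moved together in them, so such counts, here and below, are not separate observations. The groups did not overlap for 7 members, 6 below and 1 above, beside 11% of all genes below and 11.2% above. Scaling by total counts in place of TMM, the trimmed-mean method used throughout, put the all-gene median at 0.39 and gave 6 up and 8 down for Mrpl and 5 up and 3 down for Mrps; relative to the median of all genes the Mrpl median was -0.33 and the Mrps median -0.27, against -0.30 and -0.22 under TMM. Before that subtraction the total-count medians were above 0, at 0.05 for Mrpl and 0.12 for Mrps genes. Among members with a promoter in the table, the ETS core was in 8 of 22 that fell, in 15 of 43 that were not called and in 1 of 2 that rose. The NRF1 core was in 3 of 22, 5 of 43 and 0 of 2 of these. In whole tissue, fewer cells of a type and less RNA per cell cannot be told apart.

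**Figure D1:**
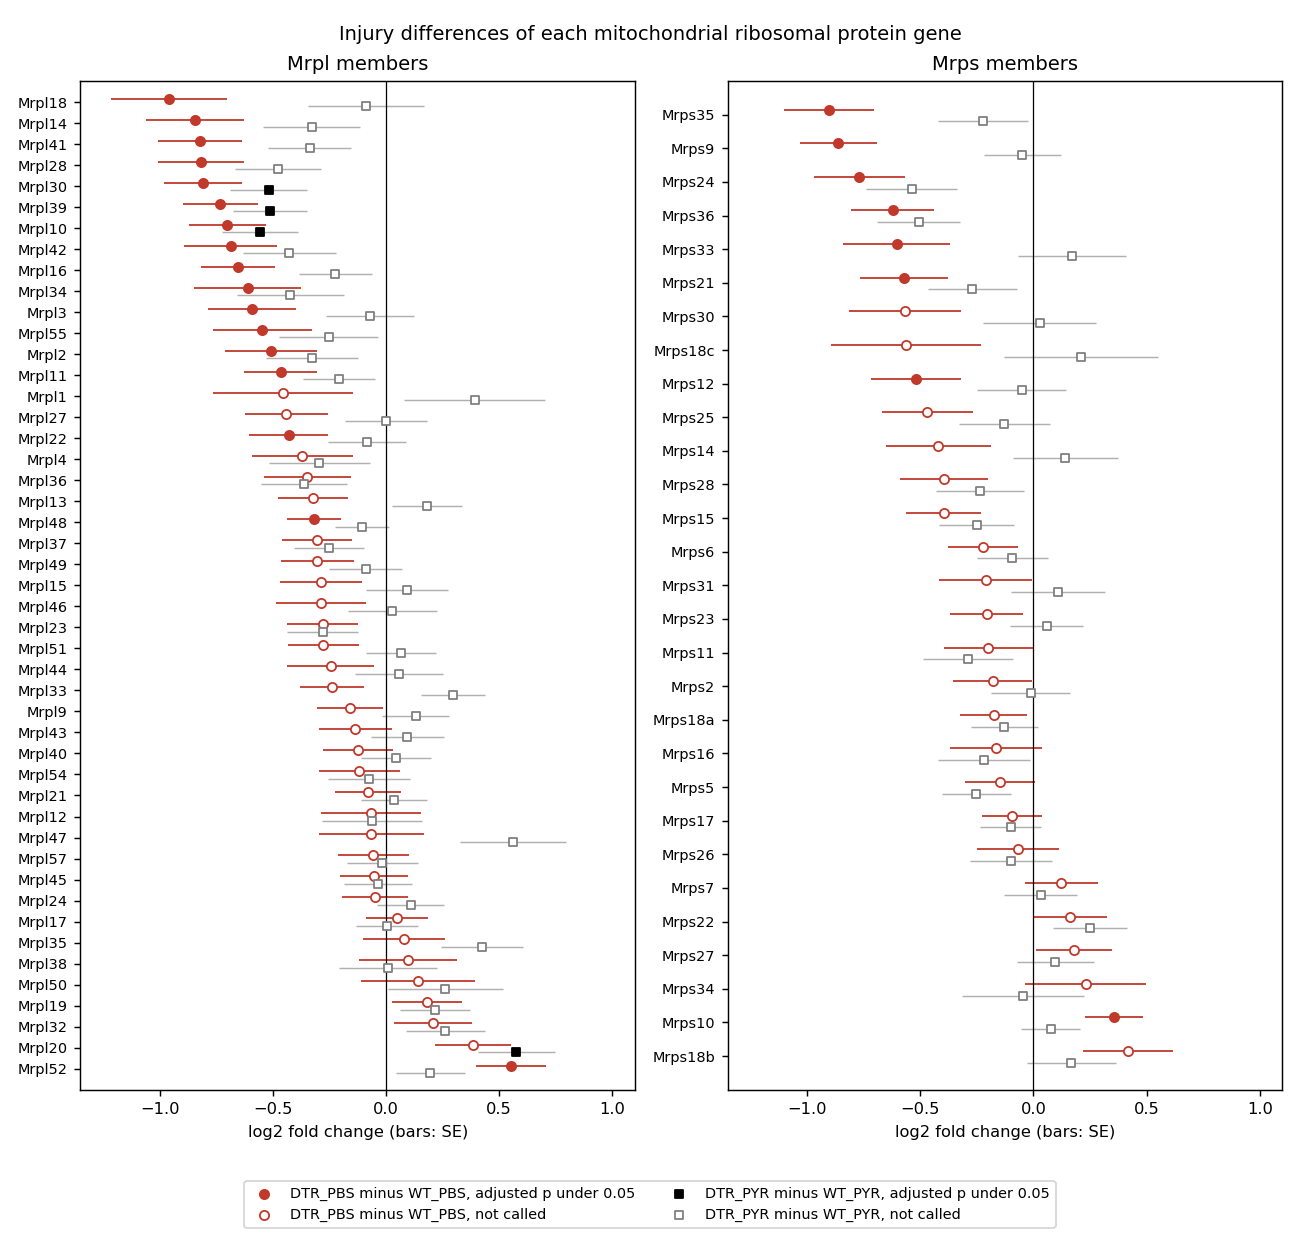
Log2 fold change with SE (x axis) of the 47 Mrpl and 29 Mrps genes (y axis, ordered by the vehicle comparison), for DTR_PBS minus WT_PBS (red circles) and DTR_PYR minus WT_PYR (squares); filled symbols have an adjusted p under 0.05. Filled red circles lie at 16 Mrpl and 7 Mrps genes left of 0 and at Mrpl52 and Mrps10 right of 0, and the pyridostigmine squares are filled for Mrpl10, Mrpl30, Mrpl39 and Mrpl20 alone.

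Among large subunit genes, Mrpl18 (chromosome 17, 12911349 to 12916345), a protein of the central protuberance, had 22.4, 17.8, 17.1, 19.1, 32.4 and 28.96 CPM in DTR_PBS hearts 1 to 6, against 43.6, 41.0, 43.2, 36.7, 42.8 and 60.2 CPM in WT_PBS hearts. Every DTR_PBS heart was below every WT_PBS heart. It fell by 0.96 on the log2 scale (SE 0.26, adjusted p = 0.00409). Mrpl14 (chromosome 17, 45686322 to 45698495), on the face that meets the small subunit, had 17.7, 20.05, 42.8, 35.9, 48.0 and 46.7 CPM in DTR_PBS hearts, against 62.7, 60.3, 70.5, 74.5, 60.8 and 48.0 CPM in WT_PBS hearts. Hearts 1 and 2 of DTR_PBS were the lowest, and DTR_PBS heart 5 was level with WT_PBS heart 6. Mrpl14 fell by 0.84 on the log2 scale (SE 0.22, adjusted p = 0.00277). Mrpl41 (chromosome 2, 24974117 to 24975098), which has no bacterial counterpart, had 13.3, 11.7, 20.7, 13.3, 24.8 and 30.0 CPM in DTR_PBS hearts, against 35.3, 31.0, 33.7, 31.3, 36.6 and 33.5 CPM in WT_PBS hearts. The groups did not overlap, and hearts 1, 2 and 4 of DTR_PBS were the lowest. The change was -0.82 (SE 0.19, adjusted p = 0.000974).

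Mrpl28 and Mrpl30, both with bacterial counterparts, changed by -0.82 and -0.81 (SE 0.19 and 0.17, adjusted p = 0.00132 and 0.000563). Mrpl30 averaged 74.2 ± 20.4 CPM in DTR_PBS hearts and 130 ± 10.7 CPM in WT_PBS hearts (SD, n = 6 each). Mrpl16 (-0.65), Mrpl3 (-0.59) and Mrpl2 (-0.51), which lie near the centre where peptide bonds form, fell, and Mrpl27, in the same region, had a change of -0.44 and was not called (adjusted p = 0.0546). The call of Mrpl2 was lost in 19 of 36 alternatives, total-count scaling and leaving out DTR_PBS heart 1, 2, 3 or 4 or WT_PBS heart 1, 2, 3, 4 or 5 among them, with changes between -0.96 and -0.13. Of the stalk and its base, Mrpl10 (-0.70) and Mrpl11 (-0.47) fell. Mrpl12, carried by Mrpl10, was not called, at 151 ± 61.8 CPM in DTR_PBS hearts and 158 ± 29.7 CPM in WT_PBS hearts (log2 -0.07, adjusted p = 0.836). Of the membrane anchor, Mrpl45 had a change of -0.05 (adjusted p = 0.801) and was not called.

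Mrpl52 (chromosome 14, 54426909 to 54429756), a protein without bacterial counterpart, went the other way. It had 43.1, 42.0, 47.8, 54.1, 54.5 and 61.4 CPM in DTR_PBS hearts, against 35.6, 30.4, 38.3, 39.4, 31.9 and 29.9 CPM in WT_PBS hearts. Every DTR_PBS heart was above every WT_PBS heart. Within DTR_PBS, hearts 1 and 2 were the lowest for Mrpl52 too, and heart 1 or 2 was the lowest for most other members. It rose by 0.55 on the log2 scale (SE 0.15, adjusted p = 0.00527). Among Mrpl genes the next highest change was 0.38, that of Mrpl20, an early assembly protein, which was not called (adjusted p = 0.0677).

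Among small subunit genes, Mrps35 (chromosome 6, 147042764 to 147070903), a protein of the head of the subunit without bacterial counterpart, had 21.6, 23.3, 42.1, 24.8, 41.6 and 55.1 CPM in DTR_PBS hearts, against 76.4, 54.3, 66.9, 67.3, 64.9 and 60.2 CPM in WT_PBS hearts. Only heart 6 of DTR_PBS reached the WT_PBS range, and the change was -0.90 (SE 0.20, adjusted p = 0.000837). Mrps9 (chromosome 1, 42851233 to 42905683), also of the head and with a bacterial counterpart, had 23.9, 28.1, 37.4, 28.4, 47.3 and 43.5 CPM in DTR_PBS hearts, against 70.2, 50.3, 63.5, 58.3, 71.3 and 65.0 CPM in WT_PBS hearts. The groups did not overlap, and the change was -0.86 (SE 0.17, adjusted p = 0.000326). Mrps24 (chromosome 11, 5703983 to 5715680), which lies where mRNA enters, had 28.98, 32.2, 44.4, 38.6, 64.9 and 67.9 CPM in DTR_PBS hearts, against 80.6, 75.5, 90.02, 100.2, 64.9 and 60.1 CPM in WT_PBS hearts. Here hearts 5 and 6 of DTR_PBS overlapped with WT_PBS, and the change was -0.77 (SE 0.20, adjusted p = 0.00326). Mrps33 (-0.60), Mrps21 (-0.57) and Mrps12 (-0.52), the last at the decoding centre, also fell. The call was lost in 12 of 36 alternatives for Mrps33 and in 11 for Mrps12, single hearts left out among them. Mrps7, another head protein, had a change of 0.12 (adjusted p = 0.576) and was not called.

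Mrps10 (chromosome 17, 47368887 to 47381417), another protein of the head, had 24.3, 20.1, 25.4, 29.7, 25.6 and 22.6 CPM in DTR_PBS hearts, against 23.4, 15.8, 18.4, 17.0, 20.1 and 19.7 CPM in WT_PBS hearts. The groups overlapped through WT_PBS heart 1, and the gene rose by 0.36 on the log2 scale (SE 0.13, adjusted p = 0.0274). Its call was lost in 9 of 36 alternatives, among them leaving out DTR_PBS heart 4 or WT_PBS heart 2, 3 or 4 alone, with an adjusted p of up to 0.276. Mrps36, named for the small subunit but known as a part of the 2-oxoglutarate dehydrogenase complex, had a change of -0.62 (SE 0.18, adjusted p = 0.00785). Mrps30 and Mrps18a are placed in the large subunit, and neither was called: Mrps30 had a change of -0.57 (adjusted p = 0.0677) and Mrps18a of -0.18 (adjusted p = 0.356). Of the close relatives of Mrps18a, Mrps18b had a change of 0.42 (adjusted p = 0.0914) and Mrps18c of -0.56 (adjusted p = 0.177), neither called. Mrps6, of the platform, had a change of -0.22 (adjusted p = 0.254). Members with a bacterial counterpart had 15 of 45 down and 1 up (median -0.35), and those that exist only in mitochondria had 7 of 30 down and 1 up (median -0.21), with Mrps36 counted in neither.

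The reads were not strand-specific, and 31 of the 76 members have exons that overlap another gene in the reference. In 6 of them, Mrpl19, Mrpl24, Mrpl43, Mrps18b, Mrps25 and Mrps34, over 25% of the exon length is shared, and their counts are uncertain; none of these was called. Of the members given heart by heart, Mrpl10, Mrpl14, Mrpl18 and Mrps24 share 14.1%, 11.2%, 10.1% and 15.4% of their exon length with Gm11574, Tmem63b, Tcp1 and Urgcp.

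The 6 DTR_PBS hearts were unlike one another. Summed over the 47 Mrpl genes, the level was 1436, 1508, 2371, 1902, 2706 and 2721 CPM in DTR_PBS hearts 1 to 6, against 2855, 2516, 2709, 2803, 2633 and 2460 CPM in WT_PBS hearts. Summed over the 29 Mrps genes it was 703, 754, 1195, 948, 1309 and 1353 CPM in DTR_PBS hearts, against 1394, 1162, 1282, 1374, 1268 and 1140 CPM in WT_PBS hearts. DTR_PBS hearts 1, 2 and 4 lay below all WT_PBS hearts in both sums, DTR_PBS heart 3 in the Mrpl sum, and DTR_PBS hearts 5 and 6 lay within the WT_PBS range. Heart 4 was the shallowest library of the series, while hearts 1 and 2 had 36318026 and 12434794 reads. Relative to the WT_PBS mean on the log2 scale, the median member was at -0.74, -0.66 and -0.45 in DTR_PBS hearts 1, 2 and 4, and at -0.07, 0.08 and 0.05 in DTR_PBS hearts 3, 5 and 6. In DTR_PYR hearts the Mrpl sums were 2353, 1878, 2686, 2751, 2613 and 2472 CPM and the Mrps sums 1160, 881, 1299, 1252, 1237 and 1217 CPM. Heart 2 of DTR_PYR was the lowest, and it held the group's lowest value for 52 of the 76 members. The ratio of the Mrpl sum to the Mrps sum lay between 1.98 and 2.24 in all 24 hearts.

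**Figure D2:**
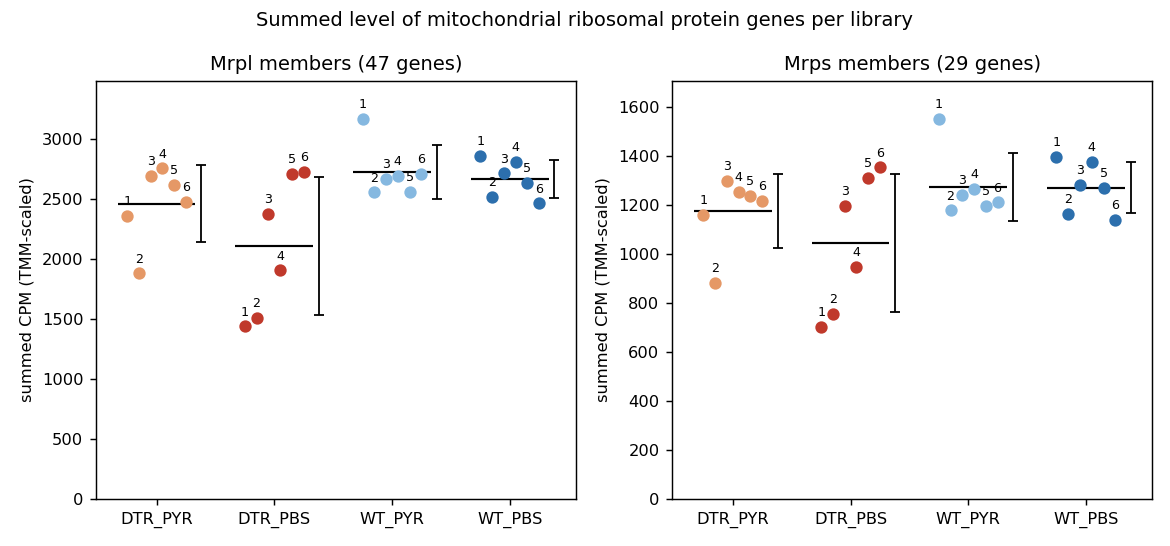
Summed TMM-scaled CPM (y axis, from 0) of the 47 Mrpl genes (left) and the 29 Mrps genes (right) in each heart, by group (x axis); numbers are replicates, horizontal lines are group means and bars are SD (n = 6). DTR_PBS hearts 1, 2 and 4 lie below every WT_PBS heart, while DTR_PBS hearts 5 and 6 lie within the WT_PBS range.

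**Figure D3:**
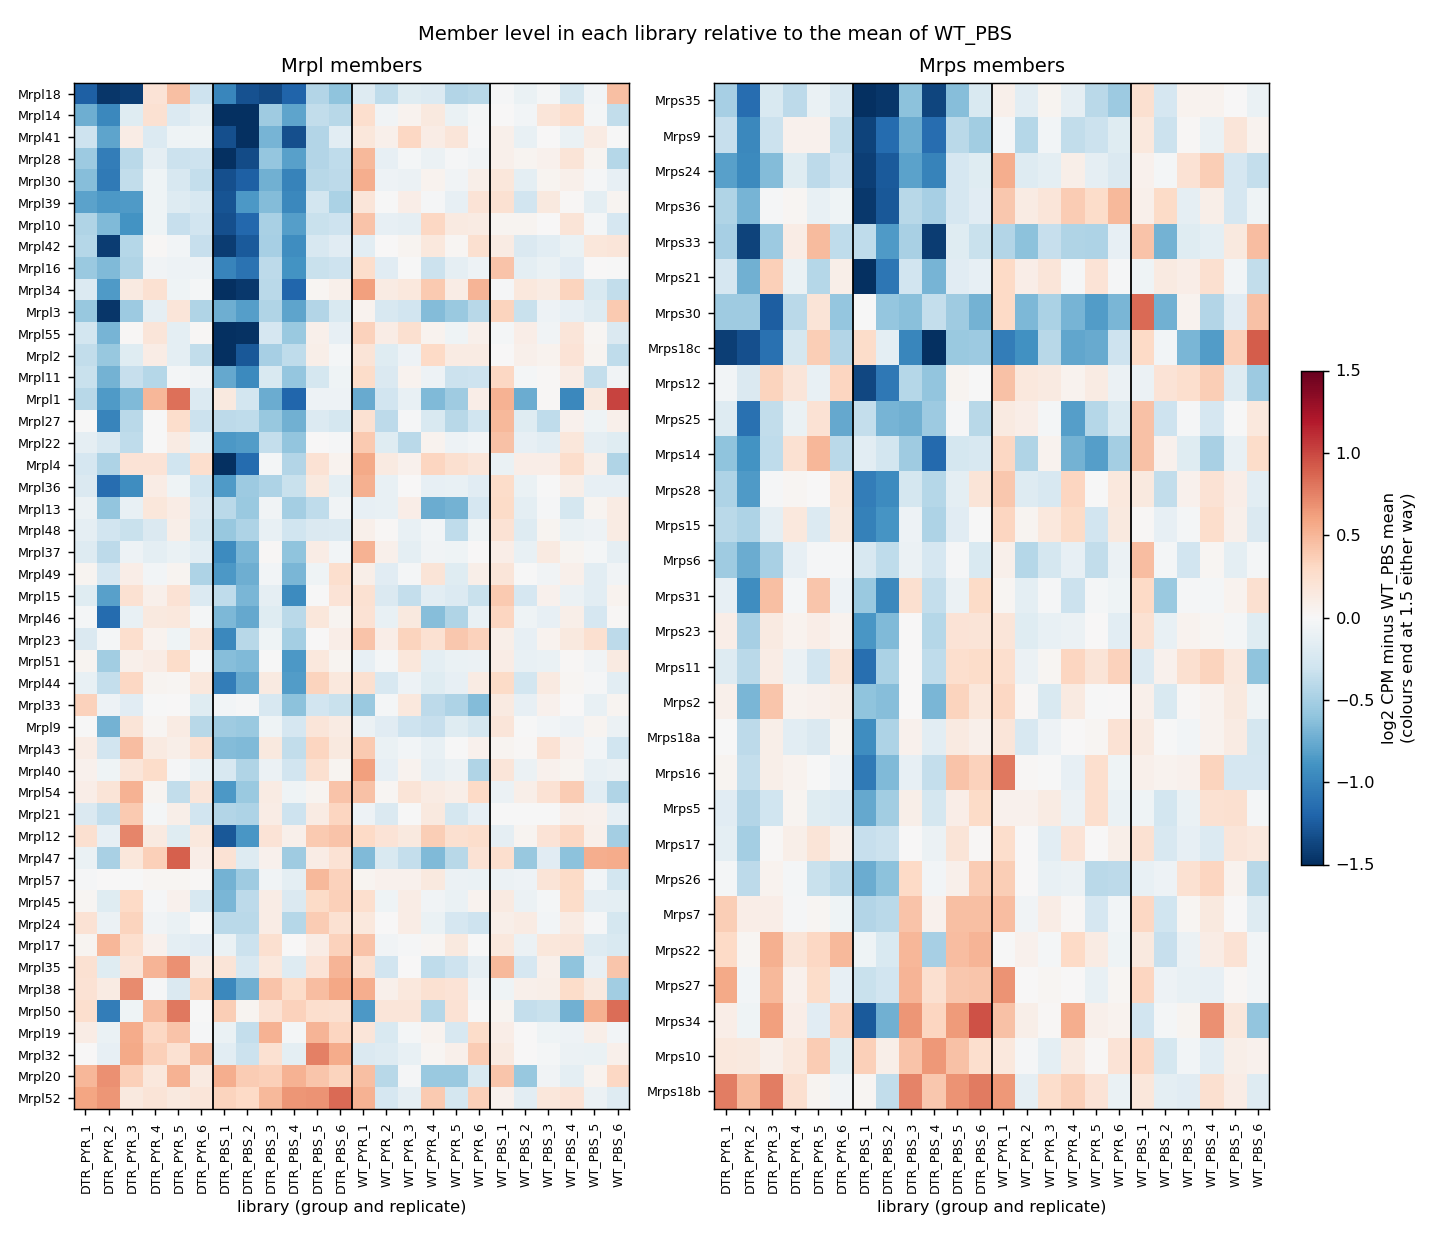
Log2 CPM of each member (rows, ordered by the change of DTR_PBS from WT_PBS) in each of 24 hearts (columns) relative to its mean in WT_PBS; blue is lower and red is higher. The columns of DTR_PBS 1, 2 and 4 and of DTR_PYR 2 are the bluest, with medians of -0.74, -0.66, -0.45 and -0.50, while Mrpl52 is red in DTR_PBS 1, 2 and 4.

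Without DTR_PBS hearts 1, 2 and 4 together, chosen after their sums were seen, which builds a smaller response into the choice, 1 Mrpl gene fell and 3 rose (median 0.01), and 1 Mrps gene fell and 4 rose (median 0.06). Leaving out DTR_PBS heart 1 or 2 alone left 15 or 14 members called down in place of 23, with a Mrps median of -0.14 in both cases. A fit of only the DTR_PBS and WT_PBS hearts called 19 members down in place of 23. The animal tags end in U or V, a letter the labels do not explain. Among U hearts alone (DTR_PBS 1 and 4, and WT_PBS 1, 2, 4 and 5) 20 Mrpl and 13 Mrps genes fell, with medians of -0.58 and -0.55. Among V hearts alone (DTR_PBS 2, 3, 5 and 6, and WT_PBS 3 and 6) 1 Mrpl gene rose and 1 Mrps gene fell, and the medians were -0.09 and 0.00. With the letter as a term in the fit, 17 Mrpl and 9 Mrps genes fell and 1 of each rose. The all-gene median was 0.03 among U hearts, -0.01 among V hearts and -0.04 without DTR_PBS hearts 1, 2 and 4. Shares of all genes called in these fits are not given, and the fits differ in number of hearts. Their counts are therefore no measure of the members apart from other genes.

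Other gene groups moved across the same hearts, and their part in the members' changes was not tested. The 10 cardiomyocyte markers, none of them at 0 in any heart, summed to between 22575 and 68001 CPM in DTR_PBS hearts, against 89421 to 101252 CPM in WT_PBS hearts; 8 of 10 fell (7 under total-count scaling). The lowest sums were those of DTR_PBS hearts 1, 2 and 4. The 10 macrophage markers, none at 0, summed to between 573 and 2211 CPM in DTR_PBS hearts, against 199.7 to 288 CPM in WT_PBS hearts; 10 of 10 rose, and the highest sums were again those of hearts 1, 2 and 4. Of 8 fibroblast markers 4 were called, all up (7 under total-count scaling), with sums of 2813 to 6568 CPM in DTR_PBS hearts and 876 to 1153 CPM in WT_PBS hearts. Of 8 endothelial markers 7 were called, all down (3 under total-count scaling), with sums of 743 to 959.6 CPM in DTR_PBS hearts and 1380.1 to 1496 CPM in WT_PBS hearts. All 8 proliferation markers rose, with sums of 49.1 to 275 CPM in DTR_PBS hearts and 5.85 to 22.3 CPM in WT_PBS hearts; Aurkb was at 0 in 2 hearts, and Ccna2 and Ccnb1 in 1 each.

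The median change of the members lay nearer to 0 than that of the nuclear genes of the respiratory chain, whose mitochondrially encoded partners the mitoribosome makes. Of 79 nuclear respiratory chain and ATP synthase genes, 67 fell and 1, Cox6a1, rose, with a median of -0.83 in DTR_PBS against WT_PBS hearts. All 12 mitochondrially encoded mRNAs tested fell, with a median of -1.47. Reads of all mitochondrially encoded genes, rRNAs included, made up 6.01% to 25.6% of the counts in WT_PBS hearts. In DTR_PBS hearts they made up 5.41% to 9.97%, so these ranges overlapped. Of 82 cytosolic ribosomal protein genes, 45 rose and 1 fell (Rpl3l, a paralog of heart and skeletal muscle), with a median of 0.44. Under total-count scaling 1 respiratory chain gene rose and 52 fell (median -0.50). Of the mitochondrial mRNAs 0 rose and 9 fell (-1.07), and of the cytosolic ribosomal proteins 78 rose and 1 fell (0.81). A change of scaling shifts all genes by nearly the same amount, so the unchanged order of these families is no separate support.

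A ratio within a heart does not depend on the scaling between hearts. The summed level of the 76 members, as a percentage of the summed level of the 79 respiratory chain genes, was 14.1, 12.2, 11.1, 10.8, 10.9 and 10.2 in DTR_PBS hearts 1 to 6, against 7.40, 7.62, 7.40, 7.48, 7.77 and 7.99 in WT_PBS hearts. Every DTR_PBS heart was above every WT_PBS heart, also hearts 3, 5 and 6, whose member sums were close to or within the WT_PBS range. In DTR_PYR hearts it was 10.9, 11.9, 10.6, 8.54, 8.77 and 8.22, against 7.75, 7.81, 7.91, 7.45, 7.77 and 7.70 in WT_PYR hearts. These groups did not overlap either, and DTR_PYR hearts 4, 5 and 6 were nearest to WT_PYR. The ratio was computed after the sums had been seen and is given with no test; it shows unequal change of both sums.

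**Figure D4:**
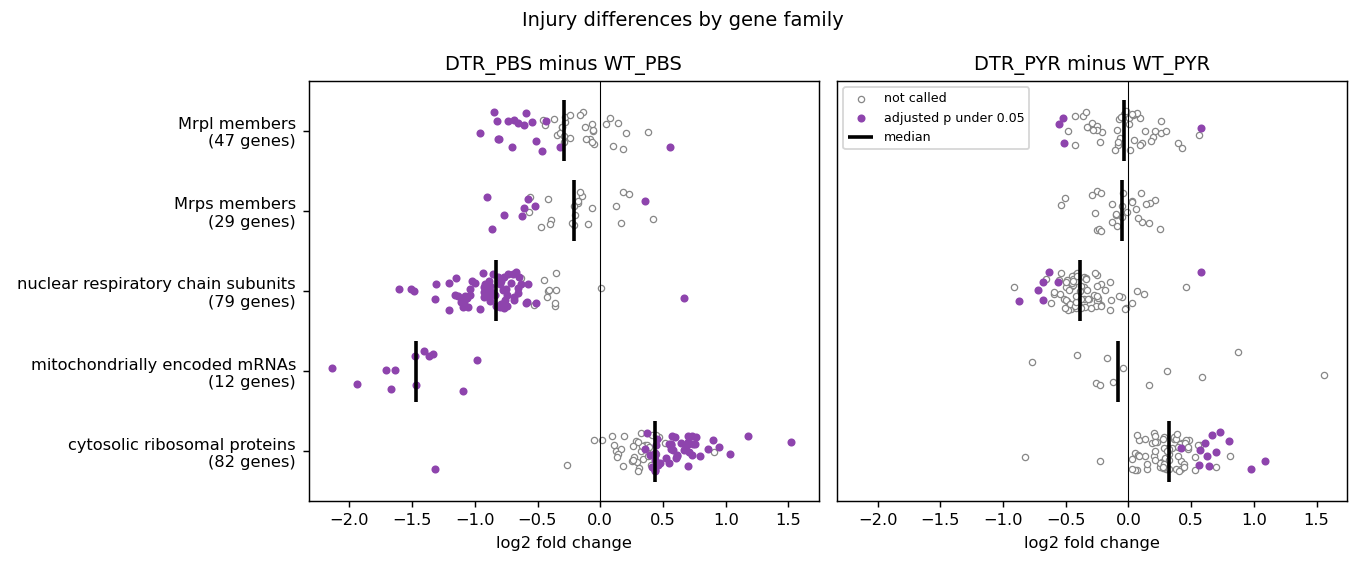
Log2 fold change (x axis) of every tested gene of 5 families (y axis; points are spread vertically at random) for DTR_PBS minus WT_PBS (left) and DTR_PYR minus WT_PYR (right); filled points have an adjusted p under 0.05 and black bars are medians. In the vehicle comparison the medians of the Mrpl (-0.29) and Mrps genes (-0.21) lie between those of the respiratory chain (-0.83) and the cytosolic ribosomal proteins (0.44).

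**Figure D5:**
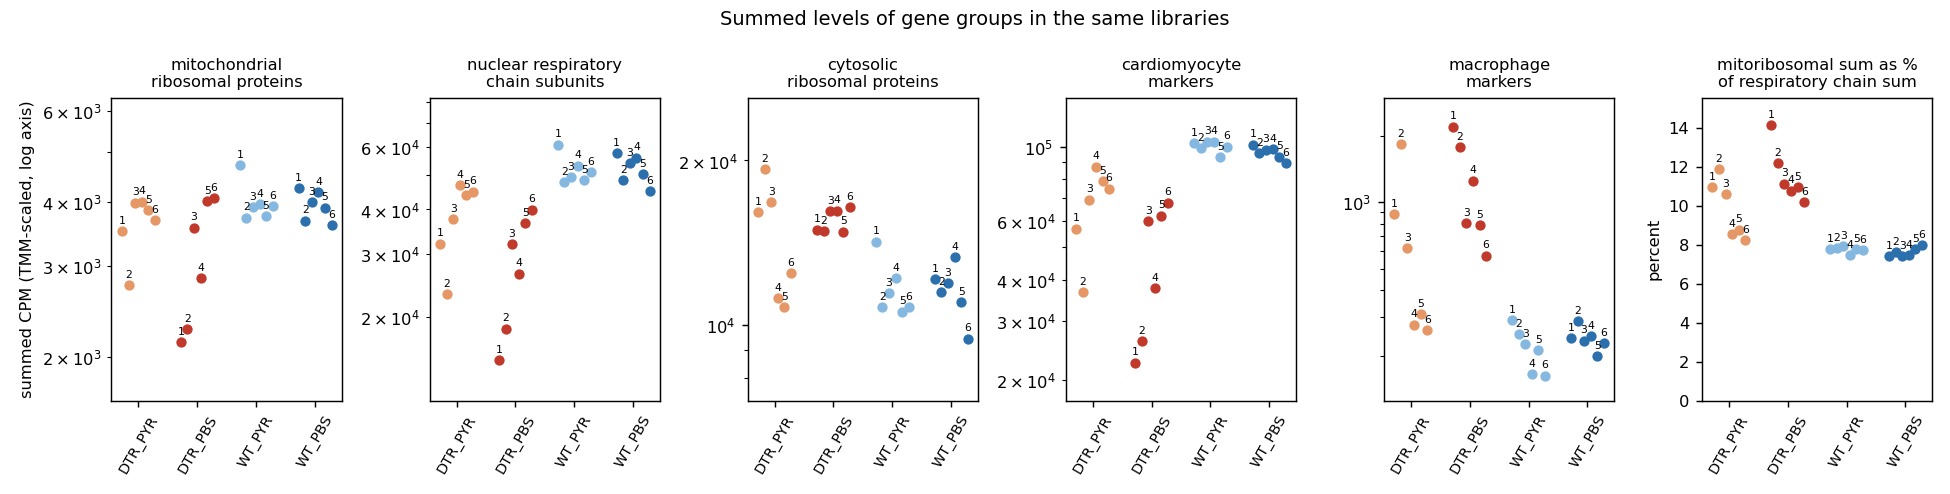
Summed TMM-scaled CPM (y axis, log scale) of the 76 members, 79 nuclear respiratory chain genes, 82 cytosolic ribosomal protein genes, 10 cardiomyocyte markers and 10 macrophage markers in each heart by group, with replicate numbers; the last panel gives the member sum as a percentage of the respiratory chain sum (linear axis from 0). Within DTR_PBS, hearts 1, 2 and 4 are lowest for members and cardiomyocyte markers and highest for macrophage markers, while the percentage is 10.2 to 14.1 in DTR_PBS and 7.40 to 7.99 in WT_PBS.

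The rRNAs of the mitochondrial ribosome fell in DTR_PBS against WT_PBS hearts. The small rRNA, mt-Rnr1, had 4576, 3722, 2329, 2614, 2702 and 5944 CPM in DTR_PBS hearts, against 12219.5, 6810.3, 8410.1, 3916, 14063 and 18401 CPM in WT_PBS hearts. The groups overlapped through WT_PBS heart 4, and the change was -1.54 (SE 0.40, adjusted p = 0.00286). The large rRNA, mt-Rnr2, had 22812, 18051, 9473, 12192, 11762 and 20178 CPM in DTR_PBS hearts, against 63402, 25121, 34381, 19153, 57184 and 94104 CPM in WT_PBS hearts. Its change was -1.63 (SE 0.39, adjusted p = 0.00146), and WT_PBS hearts alone spanned from 19153 to 94104 CPM. In DTR_PYR against WT_PYR hearts the changes were -0.31 for mt-Rnr1 and -0.23 for mt-Rnr2 (adjusted p = 0.631 and 0.718), neither called. Between the uninjured groups, WT_PYR against WT_PBS, they were -0.78 and -1.02 (adjusted p = 0.998 for both), neither called. Selection for polyA tails captures these rRNAs in part, so their counts are not measures of all rRNA.

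The other genes of mitochondrial translation were read from lists. Of 7 mitoribosomal proteins with other names, 3 fell and 1 rose in DTR_PBS against WT_PBS hearts (1 down and 1 up under total-count scaling): Dap3, of the head of the small subunit, changed by -0.77 (adjusted p = 0.000716), and Chchd1 by 0.71 (adjusted p = 0.00097). Of 13 translation factors, 4 were called, all down (2 under total-count scaling), of which the elongation factor Gfm1 had the smallest p, at -0.83 (adjusted p = 0.000502). Of 27 genes listed for ribosome assembly, 7 fell and 1 rose (1 down and 2 up under total-count scaling). Rbfa, a small subunit assembly factor, changed by -0.88 (adjusted p = 9.22e-05). The rise was that of Yrdc, at 1.13 (adjusted p = 0.000241), which is in this list without being a ribosome assembly factor. Of 17 mitochondrial tRNA synthetases, 9 fell and 1 rose (3 down and 3 up under total-count scaling), with Cars2, which charges the tRNA for cysteine, at -0.82 (adjusted p = 0.00159).

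Of 22 genes of mitochondrial transcription and RNA processing, 6 fell and 2 rose (3 down and 3 up under total-count scaling); Lrpprc, which stabilises mitochondrial mRNAs, changed by -1.17 (adjusted p = 0.00026). Of 20 import, chaperone and protease genes, 4 fell and 1 rose (2 down and 4 up under total-count scaling), with the protease Lonp1 at -0.65 (adjusted p = 0.000945). Of 12 regulators of mitochondrial biogenesis, 3 fell and 3 rose (2 down and 5 up under total-count scaling). Over the 7 lists the share called down ran from 20% in the import list to 52.9% in the tRNA synthetases, beside 21.6% of all genes. Myc, a transcription factor of growth, changed by 4.4 (adjusted p = 1.58e-05), and Pprc1, a coactivator of the PGC-1 family, by 1.57 (adjusted p = 5.03e-05). The nuclear receptor Ppara, which drives fatty acid oxidation, changed by -1.67 (adjusted p = 8.38e-05). In DTR_PYR against WT_PYR hearts, 6 genes of the 7 lists were called, 5.08% of their 118 tested genes, beside 12.2% of all genes: Myc (3.69, adjusted p = 0.00053), Pprc1 (1.01, adjusted p = 0.011), Hspe1 (0.78, adjusted p = 0.0397), Yrdc (0.72, adjusted p = 0.0333), Rbfa (-0.52, adjusted p = 0.0262) and Trap1 (-0.47, adjusted p = 0.0349).

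Under pyridostigmine, few members were called between injured and uninjured hearts in the fit of all hearts. In DTR_PYR against WT_PYR hearts, 3 of 47 Mrpl genes fell and 1 rose, with a median of -0.04, and 0 of 29 Mrps genes were called by edgeR, with a median of -0.05 and 2 Mrps genes at an unadjusted p under 0.05. DESeq2 called 1 Mrps gene, and limma voom 0. In the same families the respiratory chain had 6 of 79 down and 1 up (median -0.39), and the cytosolic ribosomal proteins 12 of 82, all up (median 0.32; 31 up under total-count scaling). The 12 mitochondrially encoded mRNAs had a median of -0.08, and the smallest adjusted p among them was 0.0533. Leaving out DTR_PBS hearts 1, 2 and 4, which are outside this comparison, put 26 of 79 respiratory chain genes down and 1 up. Over all genes 12.2% were called, 8.06% up and 4.17% down, with a median of 0.04. For Mrpl genes DESeq2 called 3 down and 1 up, and limma voom 1 up. At an unadjusted p under 0.05 there were 11 members, 7 down and 4 up, beside 29.5% of all genes. Of the 76 members 33 lay above 0, beside 53.2% of all genes. The groups did not overlap for 2 members, Mrpl28 and Mrps36, both below and neither called, beside 3.18% of all genes below and 2.19% above. Under total-count scaling the all-gene median was 0.19, and the members called were 3 Mrpl genes, all up, with medians of 0.13 for Mrpl and 0.09 for Mrps genes. Without WT_PYR heart 1 both medians were also above 0, at 0.020 and 0.003. Without DTR_PYR heart 1 or 2, or without WT_PYR heart 4, 5 or 6, 0 members were called by edgeR (7 to 9 at an unadjusted p under 0.05). Without DTR_PYR heart 3 or WT_PYR heart 1 or 2, 1 was called, and 2 without WT_PYR heart 3. Other choices gave more calls. Among U hearts alone 9 Mrpl and 3 Mrps genes fell and 1 Mrpl gene rose, and among V hearts alone 0 were called. More members were also called without DTR_PYR hearts 4, 5 and 6, as given in the last section. These hearts were nearest to WT_PYR in the marker sums given next, so leaving them out favours a larger injury change.

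DTR_PYR hearts 4 to 6, with cardiomyocyte marker sums of 74852 to 87119 CPM and macrophage sums of 263 to 312 CPM, were nearest to WT_PYR hearts, at 93122 to 103506 and 163 to 291 CPM; DTR_PYR heart 2 was farthest, at 36718 and 1844 CPM. The part of these cell types in the members' changes was not tested.

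The 3 that fell had fallen under vehicle too. Mrpl10, which carries the Mrpl12 stalk, had 45.6, 39.4, 33.5, 59.7, 49.1 and 51.1 CPM in DTR_PYR hearts 1 to 6, against 84.2, 57.1, 56.7, 77.4, 68.4 and 68.1 CPM in WT_PYR hearts. Heart 4 of DTR_PYR alone reached the WT_PYR range, and the change was -0.56 (SE 0.17, adjusted p = 0.033). Mrpl39 had 40.9, 39.1, 39.4, 68.4, 62.5 and 60.2 CPM in DTR_PYR hearts, against 81.0, 70.7, 76.2, 70.3, 65.5 and 82.1 CPM in WT_PYR hearts. Its DTR_PYR hearts 1 to 3 were lower than hearts 4 to 6, and the change was -0.51 (SE 0.16, adjusted p = 0.0418). Mrpl30 changed by -0.52 (SE 0.17, adjusted p = 0.0463). Of 36 alternatives, the call of Mrpl30 was lost in 21, of Mrpl39 in 14, of Mrpl10 in 11 and of Mrpl20 in 9. Leaving out any 1 WT_PYR heart lost that of Mrpl30. Mrpl20 had 39.4, 45.0, 35.9, 31.1, 40.2 and 30.7 CPM in DTR_PYR hearts, against 38.2, 21.0, 27.7, 19.0, 18.9 and 23.9 CPM in WT_PYR hearts. WT_PYR heart 1 was alone in overlapping with DTR_PYR, and the gene rose by 0.57 on the log2 scale (SE 0.17, adjusted p = 0.0294). Mrps24 (-0.54, adjusted p = 0.075) and Mrps36 (-0.51, adjusted p = 0.0649) had the smallest p values of the Mrps genes and were not called.

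The pyridostigmine and vehicle injury comparisons share no hearts. Of the 23 members that fell under vehicle, 22 were below 0 under pyridostigmine, and 3 (13.0%) were also called down there. Over all genes 95.3% of those called down under vehicle were below 0 under pyridostigmine, and 18.2% were called down. All 23 had a smaller change under pyridostigmine, as did 97.7% of all genes called down under vehicle, which a choice by calls under vehicle favours. Mrpl18 stood at -0.09 under pyridostigmine and -0.96 under vehicle, with 18.8, 15.98, 16.4, 50.8, 60.4 and 35.4 CPM in DTR_PYR hearts 1 to 6, against 38.4, 33.8, 39.0, 38.1, 32.4 and 33.1 CPM in WT_PYR hearts. DTR_PYR hearts 1 to 3 were below all WT_PYR hearts, and DTR_PYR hearts 4 and 5 above them all. Mrps9 stood at -0.05 under pyridostigmine and -0.86 under vehicle, and Mrps35 at -0.22 under pyridostigmine and -0.90 under vehicle. Across the 76 members the rank correlation of both sets of changes was 0.62, and over 15456 genes 0.78, as a description of genes that share libraries.

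The effect of pyridostigmine was read within injured and within uninjured hearts. In DTR_PYR against DTR_PBS hearts, 0 of 76 members and 0% of all genes were called by edgeR, DESeq2 called 1 member and limma voom 3, and 11 members had an unadjusted p under 0.05, beside 19.4% of all genes. The groups overlapped for all 76 members, while 0.162% of all genes were above and 0.214% below without overlap. All 11 were higher in DTR_PYR hearts, beside 11.7% of all genes above 0 at an unadjusted p under 0.05. Of the 76 members 65 lay above 0, beside 49.6% of all genes. All members come from the same hearts, so these are not 76 separate observations. The medians were 0.22 for Mrpl and 0.13 for Mrps genes, against -0.01 over all genes (0.07, 0.01 and -0.16 under total-count scaling). Without DTR_PBS heart 2 they were 0.14 for Mrpl and 0.07 for Mrps genes, and the Mrps median was 0.08 without DTR_PBS heart 4 and 0.22 without DTR_PBS heart 5 or 6. The smallest p values were those of Mrps9 (0.58, SE 0.17, adjusted p = 0.134), Mrpl41 (0.63, SE 0.19, adjusted p = 0.134), Mrps12 (0.58, SE 0.20, adjusted p = 0.152) and Mrpl14 (0.55, SE 0.22, adjusted p = 0.181). Without DTR_PYR heart 2, the lowest of its group, 6 members were called.

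In WT_PYR against WT_PBS hearts, 0 members and 0% of all genes were called by edgeR, 0 members by DESeq2 and 0 by limma voom, and 3 members had an unadjusted p under 0.05, beside 3.11% of all genes. All 3 were lower in WT_PYR hearts. The groups overlapped for all 76 members, while 0.0906% of all genes were above and 0.188% below without overlap. The medians were 0.01 for Mrpl and 0.04 for Mrps genes, and below 0 without WT_PYR heart 1 (-0.05 and -0.02). The smallest p values were those of Mrps18c (-0.83, SE 0.33, adjusted p = 0.998), Mrps30 (-0.57, adjusted p = 0.998), Mrpl33 (-0.30, adjusted p = 0.998) and Mrpl23 (0.30, adjusted p = 0.998). Mrps18c is scarce, at 3.78 ± 0.80 CPM in WT_PYR hearts and 6.70 ± 3.06 CPM in WT_PBS hearts (SD, n = 6 each).

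The interaction asks whether the difference of DTR_PYR from DTR_PBS was unlike that of WT_PYR from WT_PBS. By edgeR 0 members and 0% of all genes were called, by DESeq2 0 members and by limma voom 0, and 6 members had an unadjusted p under 0.05, beside 7.96% of all genes. All 6 were positive, beside 5.84% of all genes positive at that p, and 61 of 76 members lay above 0, beside 53.2% of all genes. Mrps9 had 0.81 (SE 0.24, adjusted p = 0.512), Mrpl33 0.54 (SE 0.20, adjusted p = 0.569), Mrps35 0.68 (SE 0.28, adjusted p = 0.584) and Mrpl18 0.87 (SE 0.36, adjusted p = 0.584). A difference between the injury changes under vehicle and under pyridostigmine was therefore not shown for any member.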

How the data were processed

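Raw read counts per gene were deposited by the authors as one unnormalized table of 24 libraries from single-end, unstranded polyA sequencing, per the labels' protocols and the file headers. The submitters' processing notes name Bowtie2, TopHat2 2.1.1, TopHat, HTSeq, DESeq, edgeR and the build GRCm38, without the role of each. Reads that map to near-identical copies, and reads in exons shared by genes, can be assigned wrongly or lost by such counting. Genes over 0.5 CPM in at least 6 libraries were kept, scaled by TMM and fitted over all 24 libraries with 1 term per group (20 residual degrees of freedom) in edgeR 4.0.16 under R 4.3.3. Quasi-likelihood tests gave 5 comparisons, with Benjamini-Hochberg adjustment over all tested genes and a threshold of 0.05; the SE is the fold change divided by the square root of F. DESeq2 1.42.0 and limma 3.58.1 (voom) were alternatives, beside other scalings, filters and sets of libraries. The test was run on simulated counts with the same spread for all genes and groups. That check does not cover hearts as unlike one another as those of DTR_PBS. CPM values are TMM-scaled.

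The members and lists were chosen with earlier results of these data known. Named for each subunit were the 5 largest called falls and rises in DTR_PBS against WT_PBS, the called members with the smallest p in other comparisons (the 2 smallest p where none was called), Mrpl12, Mrps30, Mrps18a, Mrps18b, Mrps18c, Mrps36, Mrps6, the extremes of level, untested members and called genes of each list. Names chosen after their values were seen include Mrpl27, Mrpl45, Mrps7 and the other falls given by function. The respiratory chain family leaves out assembly factors and the cytosolic family leaves out kinases with similar names. No duplicates were found within groups, where the 60 pairs differed by a chi-square per degree of freedom of 7.14 or more. Pairs across groups were not compared.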

Additional observations from a re-analysis of the deposited data

Results flagged for a closer look

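In 6 of 48 groups of 6 hearts checked, the highest or lowest heart stood farther from its nearest neighbour than Dixon's critical value allows; chance gives about 1 in 20 groups. WT_PYR heart 1 had 3162 CPM summed over Mrpl genes (next heart 2709), 1550.2 CPM summed over Mrps genes (next 1264) and 113 CPM of Mrps24 (next 82.0). DTR_PYR heart 2 had the low Mrps sum of 881 CPM (next 1160 CPM). WT_PBS heart 6 had 60.2 CPM of Mrpl18 (next 43.6 CPM). WT_PYR heart 3 had 11114 CPM of mt-Rnr1 (next 6644 CPM).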

How the results depend on the processing

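No paired analysis was possible because the labels carry no replicate numbers, and the numbers used follow accession order. For DTR_PBS against WT_PBS, where 25 members were called, leaving out 1 heart gave 17 (without DTR_PBS heart 1) to 29 (without DTR_PBS heart 5), V hearts alone 2, and the fit without DTR_PBS hearts 1, 2 and 4 gave 9. For DTR_PYR against WT_PYR, where 4 were called, leaving out 1 heart gave 0 to 6, no filter on low counts 1, limma voom 1, a fit of only these groups 2, the fit without DTR_PYR hearts 4, 5 and 6 gave 10, U hearts alone 13, V hearts alone 0, and the fit without DTR_PBS hearts 1, 2 and 4 gave 7. For DTR_PYR against DTR_PBS, where 0 were called, DESeq2 gave 1, limma voom 3 and leaving out 1 heart 0 to 6. The share of all genes called in each alternative is not given, so these counts are not set against other genes. The fits by letter and without DTR_PBS hearts 1, 2 and 4 were chosen after seeing the data. Leaving out DTR_PYR hearts 4, 5 and 6, the nearest to WT_PYR in marker sums, favours a larger injury change. The cause of the differences between fits was not tested. Under total-count scaling Mrpl48 reversed to 0.041 (adjusted p = 0.787), and 11 of 23 falls under vehicle were called. Mrps9 was called under vehicle in all 36 alternatives and Mrpl52 in 35. Depth limits scarce members such as Mrps18c. The low count of Mrpl53 cannot be read as scarcity, because 695 of its 790 exon bases are shared with Gm42688.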
